A study of Homo sapiens with 2 samples.

Results

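The 9 genes described here encode enzymes of glycolysis, the cytosolic pathway that turns glucose into pyruvate, and of the step from pyruvate to lactate. GPI, ALDOA, TPI1, GAPDH, PGAM1, ENO1 and PKM each carry out a step of the pathway, and LDHA and LDHB are the subunits of lactate dehydrogenase. Their mRNAs are abundant in most dividing cells. The RNA sites were taken from PAR-CLIP of SOX2, a pluripotency transcription factor whose HMG box binds DNA, and the series asks where the protein contacts RNA. A site belonged to a gene when it overlapped a fixed interval of the hg19 build, given to the nearest kb, on the gene's strand. The intervals held 27 of the 16964 sites of replicate 1 and 111 of the 55830 sites of replicate 2, over 165 kb in all. In the GENCODE 29 annotation, on another build, 5 of the genes are overlapped by another annotated gene on the same strand (AC092073.1 at GPI, AC093512.2 at ALDOA, MIR6728 at ENO1, AC084117.1 at LDHA and AC010197.2 at LDHB), and sites there cannot be told apart by gene.

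Both libraries came from HEK293T, a human embryonic kidney line, transfected with a plasmid for FLAG-tagged SOX2. The tagged protein was expressed from the plasmid in both. Cells received 0.2 mM 4-thiouridine, a photoreactive uridine, 24 hours after transfection, and after 16 hours were crosslinked with 0.4 J/cm2 of light at 365 nm. RNA held by the FLAG-purified protein was trimmed with RNase T1, which cuts after guanosine, and sequenced. The libraries are independent experiments of 1 group, and neither a control library nor RNA abundance is used here. More contacts per mRNA molecule and more mRNA molecules therefore cannot be told apart in any value below, and no difference was tested. Each site carries a score, a whole number of at least 5. No source used here states what it counts, though its values resemble read numbers.

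Sites were found in 8 of the 9 genes in replicate 1 and in all 9 in replicate 2. TPI1, at 0 and 5 sites, was the gene missing from replicate 1. Nearly all sites lay on the strand of the gene: the other strand of the same intervals held 1 site in each replicate, both in the ALDOA interval and with scores of 14 and 10. The sense share was 97.8% ± 1.89 (SD, n = 2), with 96.4% in replicate 1 (95% Wilson interval 82.3 to 99.4) and 99.1% in replicate 2 (95.1 to 99.8). These intervals, and all others below, cover counting error over sites only, and sites of a transcript are not independent.

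The 9 intervals held 4.11-fold more sites in replicate 2 than in replicate 1, against 3.29-fold for the whole lists. The score sum of the 9 genes was 7973 in replicate 1 and 9090 in replicate 2, or 0.149% and 0.175% of the score sums of the lists. A single PKM site carried 54.6% of the replicate 1 sum, and without it the sum was 3619. The top site of replicate 2, at the same place, carried 10.6% of its sum and left 8122. The list sums also lean on single sites, which lie outside the 9 genes. The highest site of the list held 1560568 of 5365592 in replicate 1 and 702704 of 5192778 in replicate 2. The shares of 0.149% and 0.175% were not computed without these sites, so their order is not settled.

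**Figure D1:**
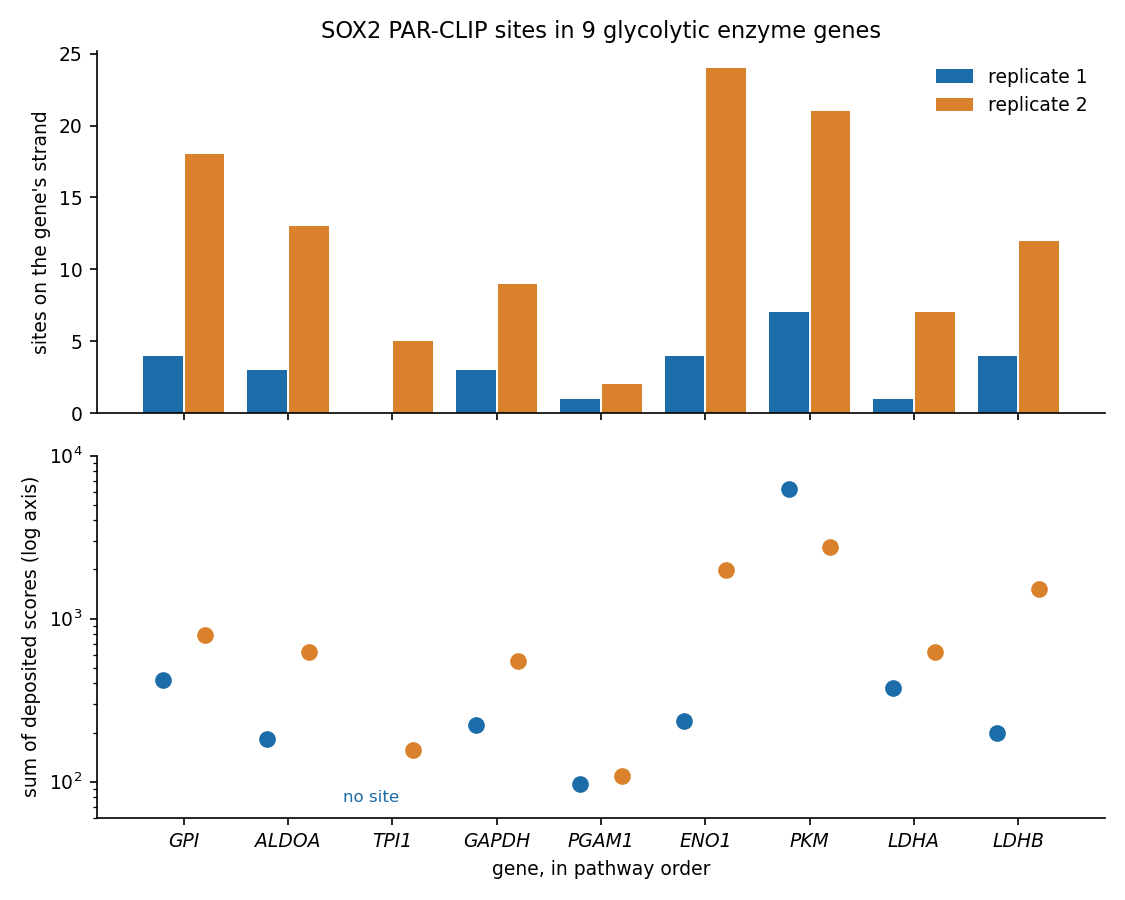
Number of sites on the gene's strand (upper panel) and sum of their deposited scores (lower panel, log axis) for each gene and replicate, with the genes in pathway order. Replicate 2 listed more sites in all 9 genes, while the PKM score sum was higher in replicate 1, at 6240 against 2740 in replicate 2, and TPI1 had no site in replicate 1.

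Sites in these genes scored higher than the typical site of either list. The median score was 80 in the 9 genes and 26 in the whole list in replicate 1. In replicate 2 it was 43 in the 9 genes and 19 in the whole list. Of the member sites, 22 of 27 in replicate 1 and 80 of 111 in replicate 2 scored above the median of their list. Scores of at least 100 were found at 11 member sites in replicate 1 (40.7%, against 14.8% of the list) and at 28 in replicate 2 (25.2%, against 7.34%). The top PKM site of replicate 1, at 4354, stood apart from the next highest member, at 968 in replicate 2. Member sites had a median length of 18 nt in both replicates, against 16 and 17 nt over the lists.

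**Figure D2:**
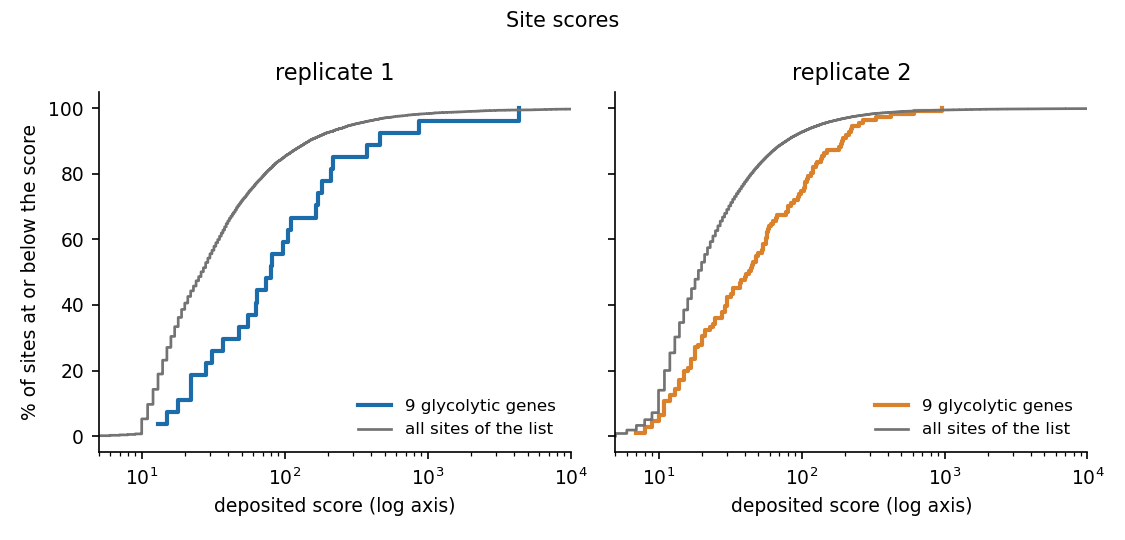
Cumulative share of sites (vertical axis, in percent) at or below each deposited score (log axis, which ends below the highest scores of the lists) for the 9 genes and for all sites of the same list. The curve of the 9 genes lies to the right of that of the list over most of the range, with medians of 80 against 26 in replicate 1 and 43 against 19 in replicate 2.

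Sites were dense over the 9 genes together compared with the genome at large. The intervals held 0.164 sites per kb in replicate 1 and 0.673 in replicate 2, against 0.00276 and 0.00911 per kb of strand over the nuclear chromosomes, most of which is not transcribed. As a nearer measure, each strand was cut into windows of 18 kb, the median length of the intervals. Among windows with at least 1 site, the median was 1 site in both replicates, and the 90th percentile was 2 sites in replicate 1 and 6 in replicate 2. In replicate 2, 0.171% of such windows held 24 sites or more, the number found in the 19 kb of ENO1, 2.18% held the 12 of LDHB or more, and 8.34% held the 7 of LDHA or more. TPI1 and PGAM1, with shorter intervals, had 5 and 2 sites and lay below the 90th percentile. In replicate 1, 0.454% of windows held the 7 sites of PKM or more and 3.79% held 4 or more, the number found in GPI, ENO1 and LDHB. PGAM1 and LDHA, with 1 site each, equalled the window median in that replicate, and TPI1 had none. The windows were cut at fixed positions and the intervals around genes, so these are not like for like. The intervals of GPI (39 kb), PKM (33 kb) and LDHB (23 kb) are also longer than the windows. Their counts therefore look rarer among windows than they would at equal length. The reverse holds for intervals shorter than the windows, such as those of TPI1 (5 kb) and PGAM1 (8 kb). Per kb, TPI1 had 1.0 sites in replicate 2 and PGAM1 0.25, against 0.673 over the 9 intervals.

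The genes did not keep the same order in the replicates. Per kb of interval, GAPDH had the most sites in both, with 0.6 in replicate 1 and 1.8 in replicate 2, while ENO1 followed in replicate 2 (1.26) and PKM in replicate 1 (0.212, close to the 0.211 of ENO1). Over the 9 genes, Spearman's rho between replicates was 0.483 for sites per kb and 0.767 for score sums. These are descriptions over 9 genes, and the score sums share the length of the intervals. As a share of the list's score sum, 7 of the 8 genes with sites in both replicates were higher in replicate 2. ENO1 moved most, 8.73-fold, then LDHB, 7.94-fold. PKM was the exception, at 0.454 times its replicate 1 share, of which a single site made up 69.8%. All these ratios depend on the highest site of each list, a larger part of the list's sum in replicate 1. They were not computed without it, so a ratio near 1, such as the 1.16 of PGAM1, has no settled direction.

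GPI, which interconverts the phosphates of glucose and fructose, has the longest interval, chromosome 19 from 34855 to 34894 kb on the plus strand. Its 4 sites in replicate 1 scored from 13 to 216, and its 18 sites in replicate 2 scored from 9 to 225 with a median of 29. In both replicates the strongest GPI site lay near the downstream edge, at 2.56 kb in replicate 1 and 3.06 kb in replicate 2. The top site of replicate 1, at 34891436 to 34891450, scored 216 and overlapped a replicate 2 site at 34891424 to 34891449 that scored 67. The top site of replicate 2, at 34890933 to 34890953, scored 225 and fell between replicate 1 sites of 28 and 166 without touching either. A further pair lay far upstream, 34.5 kb from the downstream edge, with the same start at 34859520 and scores of 13 and 40.

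ALDOA, an aldolase that splits fructose bisphosphate into triose phosphates, lies on the plus strand of chromosome 16 from 30064 to 30082 kb. Its 3 replicate 1 sites scored 37, 64 and 82 and all fell in the last 25% of the interval. The 13 sites of replicate 2 scored from 7 to 116, and 7 of them fell there. Only the site of 37 overlapped a replicate 2 site, of score 43, at 30078797 to 30078817. The replicate 1 site of 64, at 30081255 to 30081272, sat between a pair of replicate 2 sites of score 48 each, with gaps of 13 and 16 nt.

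TPI1, the isomerase that interconverts the triose phosphates, lies on the plus strand of chromosome 12 from 6976 to 6981 kb. Its 5 replicate 2 sites scored from 14 to 57 with a median of 29, against 19 over the list, and replicate 1 had none. Just outside the interval, replicate 2 had a site of 15 at 663 nt and a site of 24 at 887 nt from its edges. At the other border case, the PGAM1 site of replicate 1 started at 99185995, before the edge of its interval, and was counted because it reached 99186016.

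GAPDH, which oxidises glyceraldehyde phosphate and reduces NAD, lies on the plus strand of chromosome 12 from 6643 to 6648 kb. Its 3 sites in replicate 1 scored 55, 63 and 106, and its 9 sites in replicate 2 scored from 11 to 128 with a median of 45. Of the 3 replicate 1 sites, 2 were overlapped. The site at 6646791 to 6646811 scored 106 and its partner 104, and the site at 6647028 to 6647046 scored 55 against 126. The remaining site of 63 lay 9 nt from the top GAPDH site of replicate 2, which scored 128 at 6645646 to 6645664. In the GENCODE 29 annotation, 62 pseudogenes are named after GAPDH, of 99 over the 9 genes. No source used here states how reads matching several places were handled, so the origin of reads at such genes is uncertain.

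PGAM1, the mutase that moves the phosphate of phosphoglycerate, lies on the plus strand of chromosome 10 from 99186 to 99194 kb and had the fewest sites of the genes found in both replicates. Replicate 1 had 1 site, of score 97. Replicate 2 had a site of 50 separated from it by 6 nt and a site of 59 at 99192394 to 99192412. No PGAM1 sites overlapped between replicates. GENCODE 29 names 13 pseudogenes after this gene.

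ENO1, enolase, which makes phosphoenolpyruvate, lies on the minus strand of chromosome 1 from 8921 to 8940 kb. It had 4 sites in replicate 1 and 24 in replicate 2, with score sums of 234 and 1978. Its top replicate 2 site scored 616 at 8927206 to 8927223, was ranked 448 in the list and lay 720 nt from the nearest replicate 1 site. The top replicate 1 site scored 170 at 8923968 to 8923982 and overlapped a replicate 2 site of 120 that began at the same base. A weaker pair, at 8931755 to 8931768 in replicate 1, scored 18 and 20 and ended at the same base. ENO1 sites of replicate 2 were spread along the interval, with 12 of 24 in its downstream 50%.

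PKM, pyruvate kinase, makes pyruvate, and its transcripts carry either of a pair of alternative exons that give the M1 and M2 forms. It lies on the minus strand of chromosome 15 from 72491 to 72524 kb. The gene held the strongest sites of the group in both replicates, at the same place near its downstream edge. The replicate 1 site at 72491664 to 72491678 scored 4354 and ranked 82 in its list, and the replicate 2 site at 72491660 to 72491677 scored 968 and ranked 279. The replicate 1 score was 4.5-fold higher. A second strong pair lay at the upstream end, 32.5 kb away from the downstream edge, with 872 in replicate 1 and 422 in replicate 2. In between, a pair with an overlap of 4 nt scored 183 and 332. The remaining 4 PKM sites of replicate 1 scored 48, 111, 211 and 461, and none was overlapped, although the site of 211 lay 2 nt from a replicate 2 site of 54. The 18 remaining sites of replicate 2 included a site of 268 next to the top pair.

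LDHA and LDHB encode the subunits that mix into lactate dehydrogenase tetramers. LDHA lies on the plus strand of chromosome 11 from 18415 to 18430 kb. It had 1 site in replicate 1, of score 374 at 18425262 to 18425280, and 7 sites of 8 to 206 in replicate 2. The replicate 1 site shared a single nt with a replicate 2 site of 53, so this pair rests on the least overlap possible. The strongest LDHA sites of replicate 2, of 206, 190 and 144, lay further downstream, where replicate 1 had none.

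LDHB lies on the minus strand of chromosome 12 from 21788 to 21811 kb. Its 4 replicate 1 sites scored 22, 22, 74 and 80, and its 12 replicate 2 sites scored from 37 to 254 with a median of 110.5, the highest median among the 9 genes in that replicate. Of the 12 replicate 2 sites, 2 were overlapped and 10 were not, and over the whole list only 6.5% were overlapped. Sites without overlap are thus the usual case in that list. The 10 included a tight run of 138, 222 and 150 within 109 nt at 21794904 to 21795012, deposited under the same group name. They also included the top site of 254 at 21796924 to 21796942. None of these had a replicate 1 counterpart. A pair at 21807527 to 21807550 in replicate 1 scored 74 and 37, and a pair near the downstream edge scored 22 and 111.

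**Figure D3:**
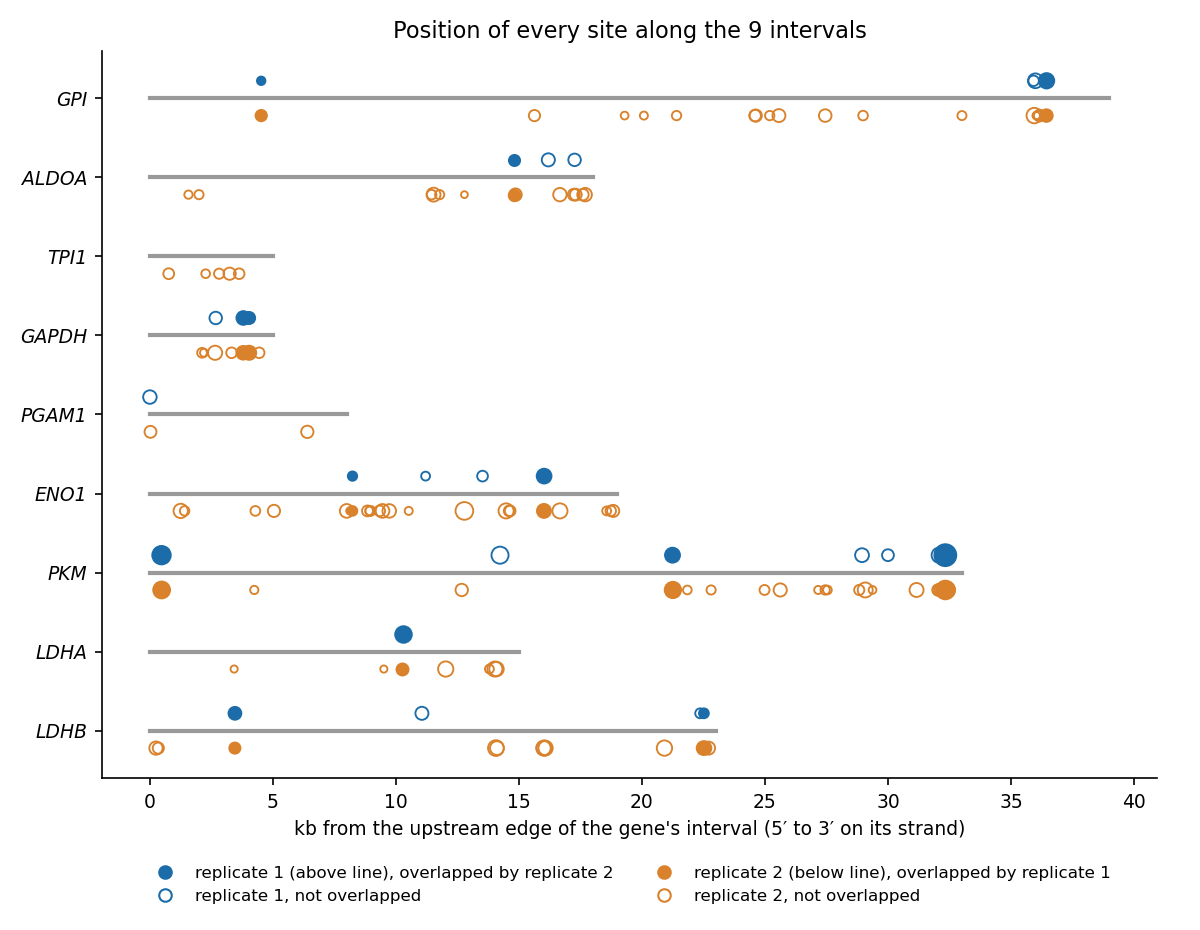
Every site of the 9 genes, drawn by its distance in kb from the upstream edge of the gene's interval, with replicate 1 above and replicate 2 below each grey line. Larger circles have higher scores, and filled circles overlap a site of the other replicate. Of 27 replicate 1 sites and 111 replicate 2 sites, 20 and 81 lie in the downstream 50% of their interval.

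Sites gathered towards the downstream end of the intervals. In replicate 1, 20 of 27 sites (74.1%, interval 55.3 to 86.8) and in replicate 2, 81 of 111 (73.0%, 64.0 to 80.4) lay in the downstream 50% of their interval. By gene, more than 70% of replicate 2 sites lay there in GPI (14 of 18), ALDOA (11 of 13), GAPDH (7 of 9), PKM (18 of 21), LDHA (6 of 7) and LDHB (9 of 12). ENO1 had 12 of 24, TPI1 3 of 5 and PGAM1 1 of 2. The genes differed in how near the edge the signal lay. The last 2 kb before the downstream edge held between 52.6% and 70.9% of the replicate 2 score sum in ALDOA, TPI1, GAPDH, PGAM1, PKM and LDHA. The share was 17.9% in LDHB, 4.9% in ENO1 and none in GPI. The PGAM1 share rests on 1 of 2 sites and that of TPI1 on 2 of 5. In replicate 1 the share was 79.8% in ALDOA, 73.2% in PKM, 71.9% in GAPDH and 22.2% in LDHB. There it was none in LDHA and PGAM1, with 1 site each, and none in ENO1 and GPI. The replicate 1 shares of ALDOA, PKM, GAPDH and LDHB rest on 2 sites each. In PKM the site of 4354 alone held 69.8% of the gene's sum. In TPI1 and GAPDH these 2 kb are a large part of an interval of 5 kb. The edges are rounded to the kb and no hg19 annotation was used, so exons, introns and untranslated regions were not assigned and the share of each interval that is transcribed is unknown.

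Of the replicate 1 sites in the 9 genes, 13 of 27 (48.1%, interval 30.7 to 66.0) overlapped a replicate 2 site on the same strand by at least 1 nt. Over the whole list this share was 21.3%. Of the replicate 2 sites, 13 of 111 (11.7%, 6.97 to 19) overlapped a replicate 1 site, and over the whole list 6.5%. The overlapping sites carried 81.4% of the members' score sum in replicate 1 and 26.9% in replicate 2. Strong sites overlap more often in these lists and the members scored above the median. The shares were therefore also taken with the same lower score limit for members and list. Such a limit does not match the scores above it, so it cannot separate score from membership. With scores of at least 20 in both lists, 45.8% (27.9 to 64.9) of replicate 1 members overlapped, against 26.7% of the list, and 13.8% (7.85 to 23.0) of replicate 2 members, against 10.1%. At scores of at least 100 the replicate 1 shares were 45.5% (21.3 to 72.0) in the members and 33.8% in the list. In replicate 2 they were 17.9% (7.88 to 35.6) and 20.8%. The list's share thus lay inside the members' interval at scores of at least 100 in both replicates, and at scores of at least 20 in replicate 2. In replicate 1 at scores of at least 20, it lay below the members' interval. At scores of at least 100 the members were only 11 and 28 sites, and their intervals are wide.

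**Figure D4:**
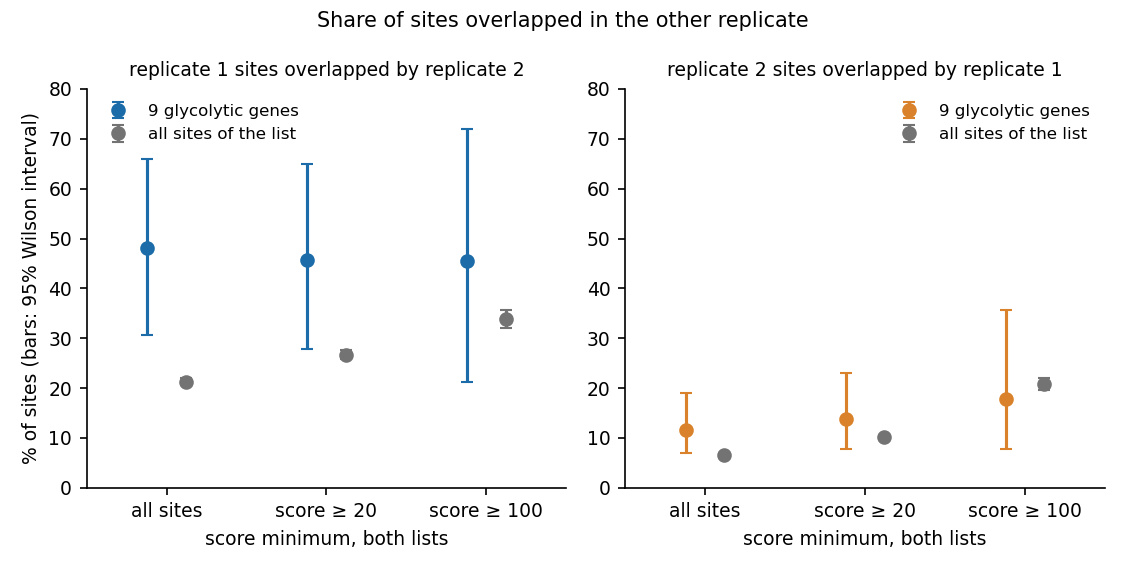
Share of sites (vertical axis, in percent) overlapped by a site of the other replicate, for the 9 genes (coloured) and for all sites of the list (grey), with all sites and with score limits of 20 and 100 applied to both lists. Bars are 95% Wilson intervals, and with all sites the shares are 48.1% against 21.3% in replicate 1 and 11.7% against 6.5% in replicate 2.

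The 13 overlapping pairs came from 7 genes: 3 from PKM, 2 each from GPI, GAPDH, ENO1 and LDHB, and 1 each from ALDOA and LDHA. The top site of the gene was overlapped in 5 of 8 genes in replicate 1 and only in PKM in replicate 2. Edges were close but rarely the same: 3 pairs had the same start, 2 the same end and none both, and in 10 pairs at least 50% of both sites was covered. Scores within pairs went both ways, with 7 pairs higher in replicate 1 and 6 higher in replicate 2. The log2 ratio of replicate 2 to replicate 1 was -0.03 at the median over the 13 pairs, with an SD of 1.52, against -0.21 and 1.37 over all 3636 overlapping pairs of the lists. It ran from -2.82 for LDHA to 2.34 for the downstream LDHB pair, and 7 pairs differed by more than 2-fold. Across the 13 pairs Spearman's rho of the scores was 0.648, as a description over pairs that share genes.

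**Figure D5:**
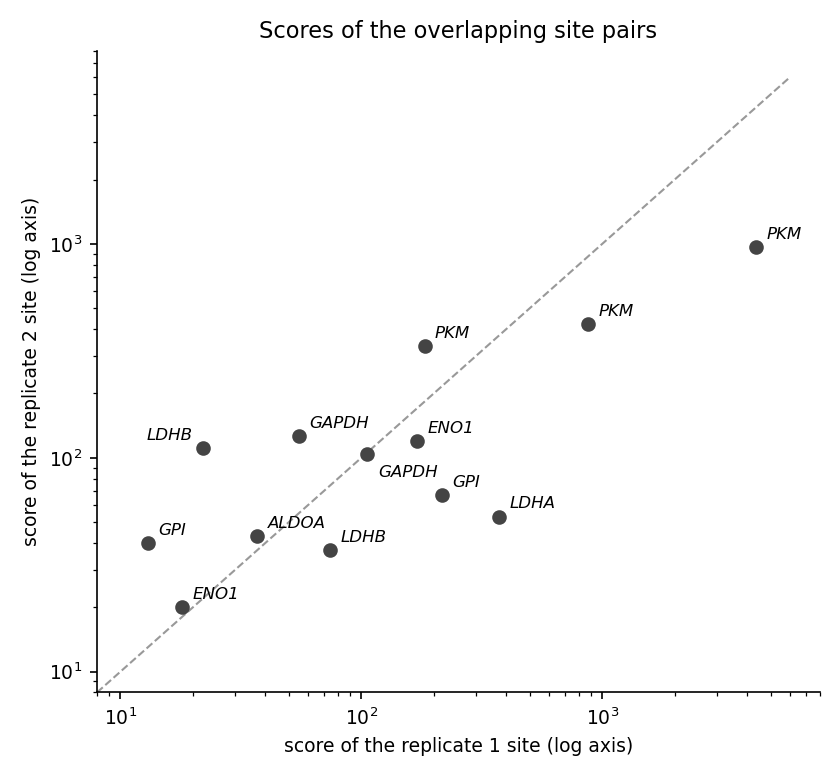
Deposited scores of the 13 overlapping pairs in replicate 1 (horizontal) and replicate 2 (vertical), both on log axes, labelled by gene. The dashed line marks equal scores, with 7 pairs below it and 6 above. PKM pairs reach the highest scores in both replicates, 4354 and 968.

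Some sites without a partner lay close to a site of the other replicate. Of the 14 replicate 1 members that were not overlapped, 6 had a replicate 2 site within 50 nt, in GPI, ALDOA, GAPDH, PGAM1 and PKM (42.9%, against 12.7% of such sites over the list). Of the 98 replicate 2 members without a partner, 13 had a replicate 1 site that near (13.3%, against 4.41%). When sites of either replicate at most 100 nt apart were joined into blocks, 87 blocks resulted: 18 with sites of both replicates, 7 of replicate 1 alone and 62 of replicate 2 alone. Both replicates were thus present in 20.7% of the members' blocks, against 9.06% of the 60283 blocks formed in the same way over the whole lists. The 18 blocks lay in 8 genes and carried 90.7% of the members' score sum in replicate 1 and 41.1% in replicate 2. Of the 12 blocks with at least 3 sites, 10 held both replicates (83.3%, against 74.5% of 2128 such blocks over the lists). The fullest, with 6 sites each, were the GAPDH block of 260 nt at 6646791 to 6647050, with scores summing to 161 in replicate 1 and 331 in replicate 2, and the GPI block of 270 nt at 34890907 to 34891176, with 194 and 295. The blocks of at least 3 sites from replicate 2 alone were in ENO1, with a score sum of 70, and LDHB, with 510. No score limit was applied to these shares of near sites and blocks. Member sites scored higher and lay more densely than sites of the lists, and the part of this in the shares was not tested.

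Replicate 2 sites were also clustered among themselves. A site of the same list and strand lay within 100 nt for 54 of 111 members (48.6%, interval 39.6 to 57.8), against 20.01% of the whole list. In replicate 1 this held for 2 of 27 members (7.41%, 2.06 to 23.4), against 5.92% of the list. The deposited site names carry a group name, which neighbouring sites can share. The 27 members of replicate 1 had 27 group names, and the 111 of replicate 2 had 91. Part of the close replicate 2 neighbours are thus numbered parts of the same deposited group. Replicate 2 was higher both in the number of member sites and in their clustering. The part of clustering, or of the splitting of groups into sites, in the larger number was not tested.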

How the data were processed

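The authors deposited 1 BED-like list of sites per library, for 2 libraries, with a score and strand for each site. Per the submitters' processing notes, bcl2fastq and Bowtie 1.1.2 were used with the hg19 build, and the labels' protocols give 18 PCR cycles and 50 bp single-end reads. No source used here names the site caller or its thresholds. Scores were used as deposited by the authors, without scaling. Read depth is unknown. PCR reads carried no stated molecular identifiers, so intervals cover counting error only.

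Sites were assigned by overlap with the 9 strand-specific hg19 intervals, and counted as overlapping between replicates with at least 1 nt in common on 1 strand (Python 3.11.15, numpy 2.4.6, pandas 2.3.3, scipy 1.17.1). The overlap code was checked on simulated lists. Positions are counted from 1. Shares have 95% Wilson intervals. The reference holds GRCh38 annotation without a genome, so only gene names were taken from GENCODE 29, coordinates were not converted, and site sequences and other glycolytic genes were not analysed here. Named sites are the top site of each gene in each list and every overlapping pair; other sites were chosen after their values were seen. The genes, lists and blocks were chosen with earlier results of these data known.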

Additional observations from a re-analysis of the deposited data

How the results depend on the processing

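Of 34 alternatives over 6 results, 29 stayed within the 95% interval of the share, 1.5 times the count or 1 SD of the value. For the sense share and the median score this SD comes from the same 2 replicates. Leaving out 1 replicate therefore cannot move them beyond it, and those alternatives, counted among the 29, say nothing about stability. Allowing a gap of up to 50 nt raised the overlapping share to 70.4% in replicate 1 and 23.4% in replicate 2, as more sites then count. Requiring 50% of both sites gave 37.0% and 9.01%. The other alternatives for these shares, which were intervals widened by 1 kb, scores of at least 20, and leaving out PKM or ENO1 (equal in sites, with the most), gave 45.8% to 50.0% and 11.1% to 13.8%. With scores of at least 20 the sense share was 100.0%, since both opposite-strand sites scored lower. Without replicate 2 there were 27 sites, a sense share of 96.4% and a median score of 80, and without replicate 1 there were 111 sites, 99.1% and 43. It leaves no overlap to compute. The median log2 score ratio of pairs ran from -0.27 with 50% of both sites to 0.02 when each score is taken as a share of its list's sum, so its sign is not settled. No paired analysis was possible because both libraries belong to 1 group. Depth is unknown, and a gene without sites in replicate 1, TPI1, may hold sites below the limit of the list.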
